A study of Mus musculus with 47 samples.

Results

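The spermatozoa of KO-F2 males were compared with those of KO-F1 males, the generation that sired them. The comparison holds 4 RNA-seq libraries, 2 of KO-F2 and 2 of KO-F1 spermatozoa, out of 47 samples in the whole series, and its members were chosen by their labels alone. SCML2 is an X-linked Polycomb protein of the male germline. KO-F1 males were fathered by Scml2-KO (Scml2 -/y) males on a C57BL/6 background, whose testicular sperm were injected into BDF1 oocytes (intracytoplasmic sperm injection, ICSI). A son receives its father's Y chromosome, so KO-F1 males carried the wild-type Scml2 allele, and their background label is BDF2. KO-F2 males were the natural offspring of single KO-F1 males and C57BL/6 females, are again wild type at Scml2, and carry the background label BDF3. Ctrl-F1 spermatozoa (2 libraries, from the sons of wild-type fathers made by the same injection, label BDF2) are given beside them as values. All males were 8 to 12 weeks old, and sperm were collected by swim-up from the cauda epididymis. The design names the 2 libraries of a group as biological replicates, and it does not say which KO-F1 male fathered which KO-F2 male.

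The 2 generations differ in more than descent. KO-F1 males came from ICSI and KO-F2 males from mating, the backgrounds differ, and only the KO-F2 libraries are labelled with a sequencing run and lane. The KO-F1 libraries held 2778171 and 2085285 counted reads and the KO-F2 libraries 11462105 and 8384266, which is 4.08 times as many on average, and a gene had to reach 3 reads, or 0.833 to 1.22 CPM (counts scaled to a common library size, TMM-normalized) in KO-F1 and 0.284 to 0.381 CPM in KO-F2, to stand above the limit that a count of 0 allows. Generation, background, conception, run and depth cannot be told apart in these 4 libraries. The precursor of ribosomal RNA, Rn45s, held 15.7% and 28.6% of all counted reads in KO-F1 and 13.3% and 3.52% in KO-F2, with Wilson limits at 95% that reach 15.7 and 15.8, 28.6 and 28.7, 13.3 and 13.3, and 3.51 and 3.54, and cover counting error only. The KO-F2 libraries correlated with each other at 0.951 across genes on a log2(CPM + 1) scale, and the KO-F1 libraries at 0.832. Scml2 itself gave 0 and 4 reads in KO-F1, 6 and 9 in KO-F2, and 0 and 18 in Ctrl-F1, too few to compare.

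Mature spermatozoa are thought to transcribe little, and most of their RNA is left from the round spermatid stage, when the genes for chromatin compaction, the flagellum, the acrosome and sperm-specific energy metabolism are read. A cauda suspension can also carry RNA of the epithelium that lines the duct, of leukocytes, and of blood or peritoneal cells that enter during dissection. Bulk RNA gives one sum over all of these, so fewer cells of a type and less RNA per cell cannot be told apart. Sets of marker genes for each of these sources, and classes of genes by function, were therefore followed through the libraries.

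KO-F2 spermatozoa held more RNA of 285 genes (2.11%) and less of 27 genes (0.200%) than KO-F1 spermatozoa, out of 13517 that could be tested. The test was edgeR's quasi-likelihood F test, p was adjusted over all tested genes by the method of Benjamini and Hochberg, and calls needed an adjusted p below 0.01 and a change of 2-fold or more. With 2 samples a group, such p-values rest on the spread between those samples alone, which the test moderates across all tested genes. Higher genes had log2 fold changes of 2.17 to 12.74 (median 3.06), and lower genes of -9.66 to -2.16 (median -3.04), while the median of all tested genes was 0.13. The adjusted values crowd just under the threshold: the smallest was 0.00911, and 4968 genes had an unadjusted p under 0.05. At an adjusted p under 0.05 the calls grew to 1917 higher (14.2%) and 842 lower (6.23%). With library totals in place of TMM scaling edgeR called 0 genes in either direction at 0.01, with 5269 at an unadjusted p under 0.05. DESeq2 with its defaults, which include its own scaling, called 1401 higher and 658 lower of 15085 tested genes. The 312 called genes kept their direction under library totals and under each of the other 13 alternatives for which they were tested. Scaling the libraries to equal sums over 5 lists of sperm genes gave 39 higher and 3937 lower calls, so that 0.981% of calls were higher against 91.3% by TMM, and moved the median of all genes to -1.89. Under it the medians of the flagellum, ion channel, spermatogonia and meiosis, cell cycle, immediate early, endothelial, neutrophil and lysosomal lists described below turned negative, and library totals moved the median of all genes to -0.30 and also turned the lysosomal list. KO-F2 and KO-F1 did not overlap in any of the 312 called genes, but neither did they in most tested genes, with KO-F2 above in 37.1% and below in 28.7%. In the text, "called" refers to the threshold of 0.01, and counts at 0.05 are named as such. A list's count at an unadjusted p under 0.05 is to be read beside the 4968 of all 13517 tested genes. Its DESeq2 calls are to be read beside the 1401 higher and 658 lower of 15085.

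**Figure D1:**
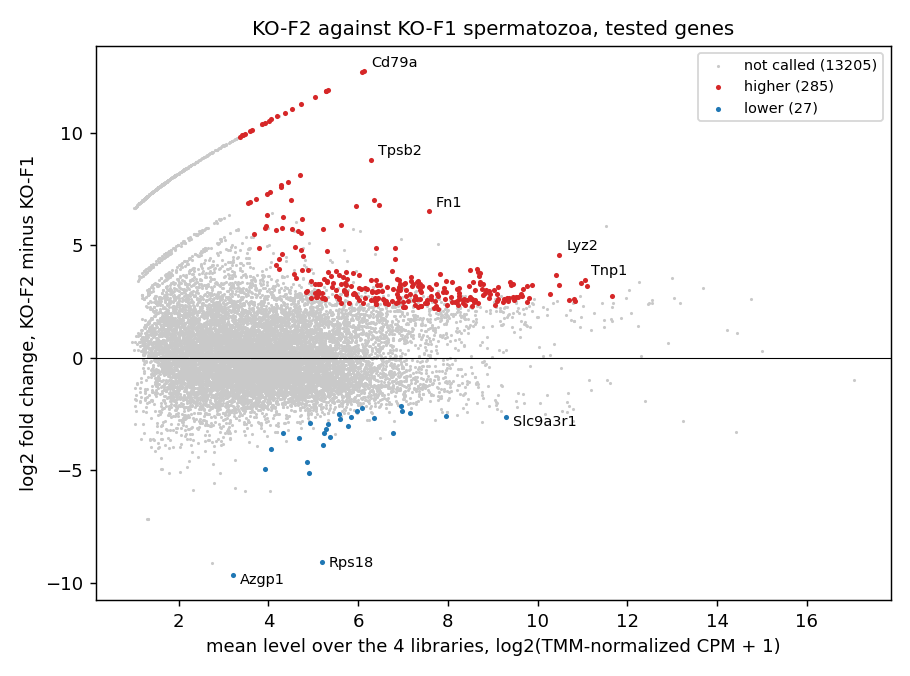
Each point is 1 of 13517 tested genes, with its mean level over the 4 libraries on the horizontal axis (log2(TMM-normalized CPM + 1)) and its log2 fold change, KO-F2 minus KO-F1, on the vertical axis. The 285 genes called higher are red, with Cd79a, Tpsb2 and Fn1 among the labelled ones, and the 27 called lower are blue, with Azgp1 and Rps18 farthest below. The curved rows at the upper left are genes with 0 or few reads in KO-F1, whose fitted folds depend on the prior count.

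Transcripts of late spermatogenesis took a larger share of the RNA in KO-F2 spermatozoa. Over 5 lists of sperm genes (spermatid nuclear proteins, flagellum, energy isozymes, acrosome and egg interaction, testis-specific kinases), 74 of 75 tested genes had a positive log2 fold change, 10 were called higher and 0 lower, where 2.11% and 0.200% of all tested genes were, and 50 were higher at 0.05, where 14.2% of all were. Their median log2 fold change was 2.26, against 0.13 for all tested genes. Together they made up 50683 and 43455 CPM in the 2 KO-F1 libraries and 192240 and 186546 CPM in KO-F2, 4.02 times as much. In Ctrl-F1 they stood at 160676 and 166913 CPM, so the KO-F1 libraries were the low ones, and the summed level in KO-F2 was 1.16 times that of Ctrl-F1, with single lists at 0.926 to 2.40 times.

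The spermatid nuclear proteins replace histones as the nucleus condenses. Tnp1, a transition protein that comes before the protamines, read 446 and 263 CPM in KO-F1 and 4238 and 3504 CPM in KO-F2, a log2 fold change of 3.46 ± 0.44 (SE, adjusted p = 0.00911), with Ctrl-F1 between them at 1974 and 1333 CPM. Hmgb4, a germ cell HMG-box protein, rose from 119 and 97.3 CPM to 863 and 832 CPM (log2 fold change 2.98 ± 0.34). All 8 genes of the list had a positive log2 fold change, with a median of 2.53, and 7 passed at 0.05. The most abundant of them, the protamines, missed the call and were picked out after their values were seen. Prm1 read 3505 and 2028 CPM in KO-F1 and 23880 and 23580 in KO-F2 (adjusted p = 0.0110), and Prm2 read 8336 and 7223 CPM against 53130 and 42490 (adjusted p = 0.0151). Ctrl-F1 read 15410 and 9122 CPM for Prm1 and 48070 and 31610 CPM for Prm2.

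Flagellar genes had a median log2 fold change of 1.87 (-0.18 when scaled to the sperm lists), with all 24 positive, 2 called and 15 passing at 0.05. Odf2, a protein of the outer dense fibres, rose from 459 and 620 CPM to 3142 and 3102 CPM (2.54 ± 0.37), and Spem1, which is needed to remove spermatid cytoplasm, from 202 and 294 CPM to 1748 and 1341 CPM (2.65 ± 0.39). The Ctrl-F1 libraries lay between the 2 groups, at 2220 and 1731 CPM for Odf2 and 1187 and 1011 CPM for Spem1. The sperm energy isozymes had a median of 2.56, with 2 of 15 called. Gapdhs, the sperm form of the glycolytic dehydrogenase that sperm motility depends on, read 126 and 83.5 CPM in KO-F1, 679 and 575 CPM in KO-F2, and 708 and 446 CPM in Ctrl-F1. Pgam2, a phosphoglycerate mutase, rose from 173 and 216 CPM to 1243 and 964 CPM (2.52 ± 0.36).

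Among the genes of the acrosome and of egg interaction, 21 of 22 tested were positive and 2 were called, with a median of 2.06. Dkkl1, an acrosomal protein, read 56.3 and 57.0 CPM in KO-F1 and 321 and 236 CPM in KO-F2. Izumo2, of the family of the egg-binding protein Izumo1, went from 9.99 and 10.2 CPM to 69.8 and 56.2 CPM. The testis-specific kinases and their substrate moved by a median of 2.52 with 2 of 6 called: Tsks, the substrate, rose from 86.9 and 154 CPM to 805 and 924 CPM (2.85 ± 0.40), and the kinase Tssk1 from 11.1 and 17.9 CPM to 100 and 102 CPM (2.82 ± 0.38). The summed level of the kinase list was 2.40 times that of Ctrl-F1 in KO-F2, while the flagellar list stood at 0.926 times Ctrl-F1.

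Other classes of testis genes had lower medians. Of the 13 sperm ion channel genes edgeR called 0 and DESeq2 0, 1 passed at 0.05 and 3 had an unadjusted p under 0.05, with a median of 1.34. That median was 0.47 without KO-F2 replicate 1, 0.66 without KO-F1 replicate 1, 0.36 with thinned counts and 0.53 with 10 counts required in every library. Catsperg1, an accessory subunit of the calcium channel of the flagellum, read 42.7 and 30.5 CPM in KO-F1 and 54.3 and 44.7 CPM in KO-F2, and the proton channel Hvcn1 26.6 and 39.9 CPM against 18.8 and 16.3 CPM. Catsper2, a pore subunit of the same calcium channel, read 18.6 and 25.2 CPM in KO-F1 and 38.1 and 33.8 CPM in KO-F2 (0.73 ± 0.38, adjusted p = 0.215), and the sign of both calcium channel genes turned when libraries were scaled to the sperm lists. The 21 tested genes of spermatogonia and meiosis had a median of 1.32, or 1.95 without KO-F1 replicate 2, where the flagellar list was at 1.96. Of them edgeR called 0 and DESeq2 4 higher, 5 passed at 0.05 and 7 had an unadjusted p under 0.05. Syce2, of the synaptonemal complex, nonetheless read 289 and 279 CPM against 1211 and 1200 CPM (2.09 ± 0.32, adjusted p = 0.0106), and Mael, of the piRNA pathway, 14.4 and 34.6 CPM against 192 and 128 CPM. Syce1, also of the synaptonemal complex, read 24.1 and 19.96 CPM against 111 and 77.8 CPM. Of 14 tested cell cycle genes edgeR called 0 and DESeq2 2, and 5 were higher at 0.05, where 14.2% of all tested genes were. An unadjusted p under 0.05 was reached by 6 of the 14, as by 4968 of all 13517 tested genes. Among the 6 was the mitotic kinase Aurka, at 17.8 and 9.37 CPM against 58.0 and 48.9 CPM. The kinetochore gene Cenpf read 7.77 and 15.9 CPM against 47.5 and 32.0 CPM, and the cyclin gene Ccnb2 4.72 and 5.70 CPM against 34.2 and 28.6 CPM.

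Several of the calls with the smallest p lay outside the sperm lists and had Ctrl-F1 between KO-F1 and KO-F2. 1700015G11Rik, a gene model with no assigned role, read 8.32 and 6.11 CPM in KO-F1, 213 and 218 CPM in KO-F2, and 31.7 and 23.4 CPM in Ctrl-F1 (log2 fold change 4.89 ± 0.38). Phospho1, a phosphatase of phospholipid head groups, rose from 42.7 and 57.0 CPM to 747 and 760 CPM (3.93 ± 0.36). Its neighbour on chromosome 11, Abi3, an adaptor of actin regulation, rose from 47.7 and 67.6 CPM to 764 and 796 CPM (3.77 ± 0.37). The RefSeq annotation of GRCm38 places Phospho1 at chr11:95824500-95832140 and Abi3 at chr11:95830072-95842476, so the 2 genes overlap and, as the strand of counting is not stated, their reads may not be separable. Spata19, a mitochondrial protein of spermatids, rose from 11.7 and 16.7 CPM to 210 and 192 CPM, and Gstt4, a glutathione transferase, from 35.2 and 28.5 CPM to 432 and 406 CPM. Gene models named Rik or Gm made up 46 of the 285 higher genes (16.1%) and 8.80% of the genes tested.

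**Figure D2:**
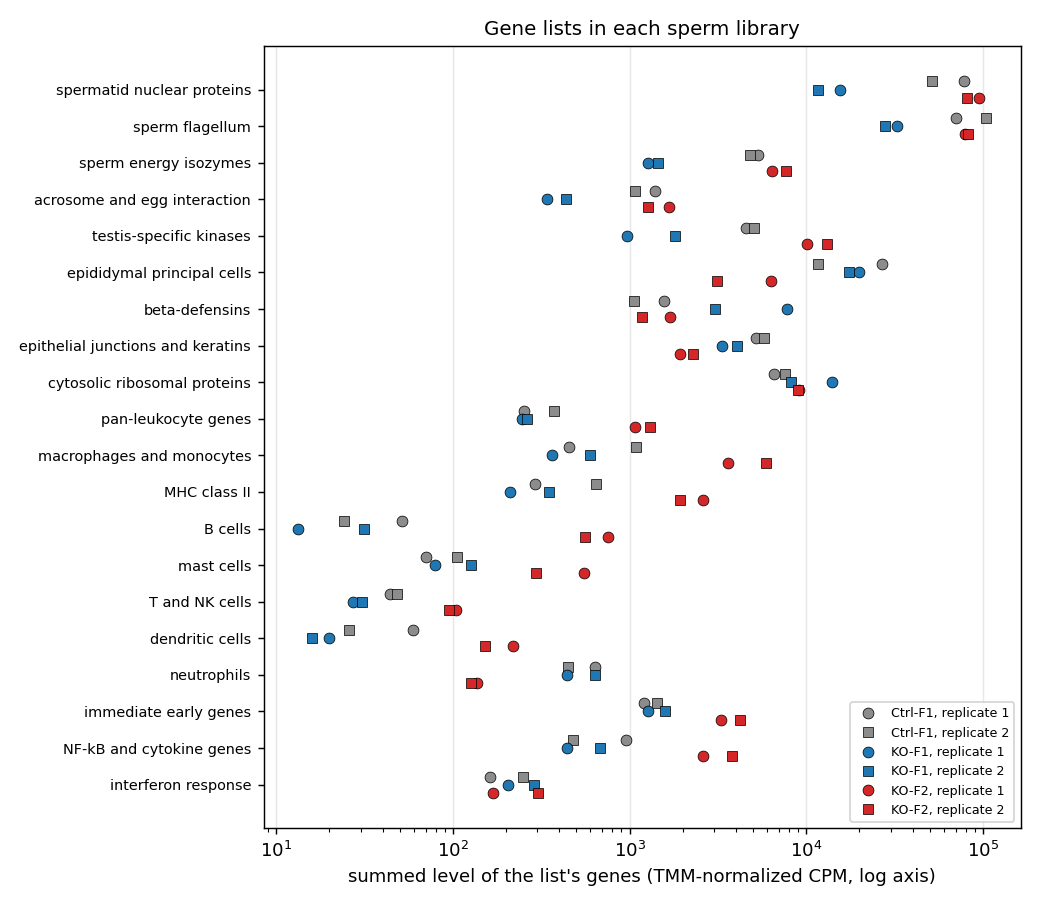
Summed level of 20 gene lists (rows) in each library, in TMM-normalized CPM on a log axis, with circles for replicate 1 and squares for replicate 2. In the 5 sperm lists at the top both KO-F1 libraries (blue) lie below all Ctrl-F1 (grey) and KO-F2 (red) libraries. In 7 of the 8 leukocyte lists and in the immediate early and NF-kB and cytokine lists both KO-F2 libraries lie above the other 4, in the neutrophil list both lie below them, and the epididymal principal cell list is lowest in KO-F2.

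Of the 285 genes called higher, 25 were on leukocyte lists, 10 on the 5 sperm lists and 234 on none of the lists followed here. Over 8 leukocyte lists, 25 of 99 tested genes were called higher and 0 lower, where 2.11% and 0.200% of all tested genes were, and 65 were higher at 0.05, where 14.2% of all were. Of the 99, 42 had fewer than 10 reads in both KO-F1 libraries. Those of them at or near 0 reads there were tested through KO-F2 alone, which leaves them one direction only. Of the 38 with at least 10 reads in every library, 8 were called higher, 21 were higher and 1 lower at 0.05, 32 were positive and the median was 1.77. The summed level of the 8 lists was 1399 and 2043 CPM in KO-F1, 9049 and 10406 CPM in KO-F2, and 1868 and 2754 CPM in Ctrl-F1. KO-F2 was thus at 5.65 times the level of KO-F1 and 4.21 times that of Ctrl-F1. The summed neutrophil list went against the other 7, at 440 and 634 CPM in KO-F1, 640 and 446 CPM in Ctrl-F1 and 137 and 127 CPM in KO-F2. Most of that sum in KO-F1 was 1 gene, Ltf, at 417 and 593 CPM. By gene 4 of its 6 tested genes were positive, but 3 of the 6 had fewer than 10 reads in both KO-F1 libraries. Of the 2 with at least 10 reads in every library 0 were positive, with a median of -1.815. The median of all 6 neutrophil genes was 0.92, with -0.34 without KO-F2 replicate 2, -0.012 without KO-F1 replicate 1 and 2.98 without KO-F1 replicate 2. Among the 140 genes of these lists, 40 had no read in either KO-F1 library, 42 none in either Ctrl-F1 library and 4 none in either of the KO-F2 libraries, which were sequenced deeper. With all counts thinned to the smallest of the 4 totals, edgeR made 571 higher and 127 lower calls, which held 311 of the 312 above. The part of cell composition was not tested.

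Genes shared by all leukocytes had a median log2 fold change of 3.50 (1.68 with 10 counts required in every library and 2.84 to 4.53 with 1 library left out), with 4 of 18 called. Ptprc (CD45), the tyrosine phosphatase on the surface of all leukocytes, gave 3 and 2 reads in KO-F1, 289 and 175 reads in KO-F2, and 0 and 15 in Ctrl-F1 (4.89 ± 0.64). Laptm5, a lysosomal membrane protein of blood cells, rose from 19.98 and 28.9 CPM to 170 and 354 CPM, Tyrobp, an adaptor of activating receptors, from 8.60 and 5.29 CPM to 86.6 and 108 CPM, and Cd37, a leukocyte tetraspanin, from 3.05 and 2.44 CPM to 78.2 and 69.6 CPM.

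B cell genes had few reads in KO-F1. Of 16 tested genes 12 had fewer than 10 reads in both KO-F1 libraries, and 1 had at least 10 reads in every library and was not called. Those at or near 0 reads in KO-F1 passed the filter on low counts through KO-F2 alone. edgeR called 9 of the 16 higher (56.2%, against 2.11% of all genes), a share that this filter raises. The median log2 fold change of the tested genes was 7.17, or 5.61 with genes at 0 reads in KO-F1 set to their lower bound, 10.39 without KO-F1 replicate 2, and 0.60 after a filter of 10 counts in every library. Cd79a, one chain of the signalling unit of the B cell receptor, gave 0 reads in both KO-F1 libraries and 1798 and 846 reads in KO-F2, at least 135-fold higher. Cd79b, the other chain, gave 0 and 7 reads against 1914 and 1088. Ms4a1 (CD20) had no read in KO-F1 or Ctrl-F1 and 1018 and 477 reads in KO-F2, at least 76.4-fold higher. Faim3, an Fc receptor for IgM, and Pou2af1, a transcriptional coactivator of B cells, each gave 0 and 1 reads in KO-F1, against 385 and 197 and against 392 and 167 in KO-F2, with ratios of 191 (95% counting interval 34.2 to 7569) and 184 (32.8 to 7270). Ly6d, a surface antigen of early B cells that some epithelia also carry, had no read in the 4 F1 libraries and 777 and 610 reads in KO-F2, at least 73.5-fold higher.

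Macrophage and monocyte genes were positive in all 25 tested, with 5 called, 17 passing at 0.05 and a median of 2.97 (2.16 without KO-F1 replicate 1 and 3.47 without KO-F1 replicate 2). Of the 16 with at least 10 reads in every library 4 were called, and the filter brought the list's median to 1.97. Lyz2, the lysozyme of macrophages, rose from 75.8 and 154 CPM to 2072 and 3425 CPM (4.58 ± 0.53) and was at 50.3 and 337 CPM in Ctrl-F1. Lyz1, its near-identical neighbour on chromosome 10, gave 0 and 0 reads in KO-F1, 1534 and 971 in KO-F2 and 0 and 27 in Ctrl-F1, at least 131-fold higher in KO-F2 than in KO-F1, and reads of the pair may have been split between them. Cd14, a co-receptor for lipopolysaccharide, rose from 6.66 and 14.3 CPM to 162 and 264 CPM. Wfdc17 rose from 5.27 and 5.70 CPM to 97.9 and 223 CPM, and Retnla, a marker of alternatively activated macrophages, from 19.98 and 42.8 CPM to 270 and 330 CPM.

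Fn1, on the list of matrix genes, had the smallest unadjusted p among the genes called higher. It encodes fibronectin and lies at chr1:71585473-71653280. It gave 15 and 10 reads in KO-F1, 2848 and 3810 in KO-F2 and 2 and 4 in Ctrl-F1 (6.51 ± 0.48). The other matrix genes mostly had the other sign: 14 of 17 tested were negative, with a median of -1.18 (-0.54 without KO-F1 replicate 2, -0.70 without KO-F2 replicate 1 and -1.86 without KO-F2 replicate 2), and Fn1 was the one called. Resident macrophages of the peritoneal cavity are known to express Fn1, and a list of 18 genes known for those cells was therefore made after these values were seen, without independent weight. Of its 18 tested genes 17 were positive and 6 called higher, where 2.11% of all tested genes were, and 9 had fewer than 10 reads in both KO-F1 libraries. Of the 5 with at least 10 reads in every library 4 were positive and 1 was called, with a median of 2.99. The list's highest log2 fold change, 12.69, is that of Lyz1, named above. Prg4, the lubricant proteoglycan 4, gave 3 and 6 reads in KO-F1 and 1010 and 1955 in KO-F2. Cd5l, a secreted macrophage protein, and Icam2, an adhesion molecule, had no read in the 4 F1 libraries and 425 and 882 reads, and 269 and 415 reads, in KO-F2, at least 74.1-fold and 38.1-fold higher. Cxcl13, a B cell chemoattractant, gave 0 and 1 reads against 210 and 417, a ratio of 206 (36.9 to 8153). Gata6, the transcription factor of these macrophages, gave 5 and 1 reads against 134 and 185 and was not called (adjusted p = 0.0164). The summed list read 64.1 and 124 CPM in KO-F1, 122 and 98.4 CPM in Ctrl-F1, and 1077 and 2544 CPM in KO-F2.

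Of 10 tested mast cell genes 7 were positive and 3 negative, down to a log2 fold change of -2.13. In this list 4 genes, all proteases, were called higher, where 2.11% of all tested genes were. The 1 gene with at least 10 reads in every library was negative. As with B cells, 6 of the 10 had fewer than 10 reads in both KO-F1 libraries. Those at or near 0 reads there entered the test through KO-F2 alone. The list's median of 5.58 was 3.98 with genes at 0 in KO-F1 at their bound, 8.43 without KO-F1 replicate 1, and -0.59 when 10 counts were required in every library. Tpsb2, a tryptase, gave 1 and 1 reads in KO-F1 and 2234 and 750 in KO-F2, a ratio of 490 (95% counting interval 136 to 4051). The chymases Cma1 and Mcpt4 gave 9 and 1, and 1 and 0, reads in KO-F1 against 1385 and 450, and 730 and 242, in KO-F2, the latter a ratio of 319 (57.2 to 12632). Carboxypeptidase Cpa3 gave 3 and 0 reads against 519 and 201, a ratio of 78.9 (26.9 to 383). The mucosal proteases Mcpt1 and Mcpt2, looked up after the values were seen, had 0 reads in all 6 sperm libraries.

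Genes of antigen presentation had the same sign. All 10 tested MHC class II genes were positive, 2 were called and 9 passed at 0.05, with a median of 3.23 (3.11 after the filter of 10 counts in every library). The invariant chain Cd74 rose from 89.4 and 174 CPM to 1391 and 1150 CPM, and H2-Aa, an alpha chain, from 30.5 and 37.5 CPM to 357 and 254 CPM (3.18 ± 0.37). Of 7 tested dendritic cell genes Ccr7, a homing receptor also found on lymphocytes, was called, with 0 reads in both KO-F1 libraries, 431 and 173 in KO-F2, and 33 and 6 in Ctrl-F1.

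For other blood lineages fewer genes could be tested. Of 25 T and NK cell genes, 7 had enough reads to test, and edgeR called 0 and DESeq2 2 higher, with 4 at an unadjusted p under 0.05 and 11 of the 25 at 0 reads in both KO-F1 libraries. Cd3d, of the T cell receptor complex, read 5.55 and 4.48 CPM in KO-F1 and 32.3 and 29.6 CPM in KO-F2 (adjusted p = 0.0137), with Ctrl-F1 at 19.96 and 27.5 CPM, and Cd2 gave 0 and 5 reads against 315 and 225. The chemokine gene Ccl5 gave 7 and 5 reads against 94 and 71. Of 6 tested neutrophil genes edgeR called 0 and DESeq2 1 in each direction, with 3 at an unadjusted p under 0.05. Ltf, lactoferrin, which epithelia also secrete, read 417 and 593 CPM in KO-F1 and 112 and 57.9 CPM in KO-F2, while Prtn3, proteinase 3 of neutrophil granules, gave 0 and 1 reads against 60 and 120, a ratio of 59.2 (10.5 to 2350). Lcn2, lipocalin 2, read 21.6 and 30.5 CPM in KO-F1 and 8.62 and 16.0 CPM in KO-F2. The granule genes Ngp and Camp, looked up after the values were seen, had 0 reads in all 6 libraries. Of 2 tested erythroid genes edgeR called 0 and DESeq2 1, both with an unadjusted p under 0.05. Alas2, the first enzyme of haem synthesis in red cells, gave 13 and 22 reads in KO-F1, but 251 in one KO-F2 library and 3603 in the other, so its level rests on replicate 2. The erythroid factor Klf1 had no read in the 4 F1 libraries and 79 and 50 in KO-F2, at least 6.73-fold higher, and was not called. Slc4a1, the anion exchanger of red cells, gave 0 and 0 reads against 4 and 47 and was not tested.

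**Figure D3:**
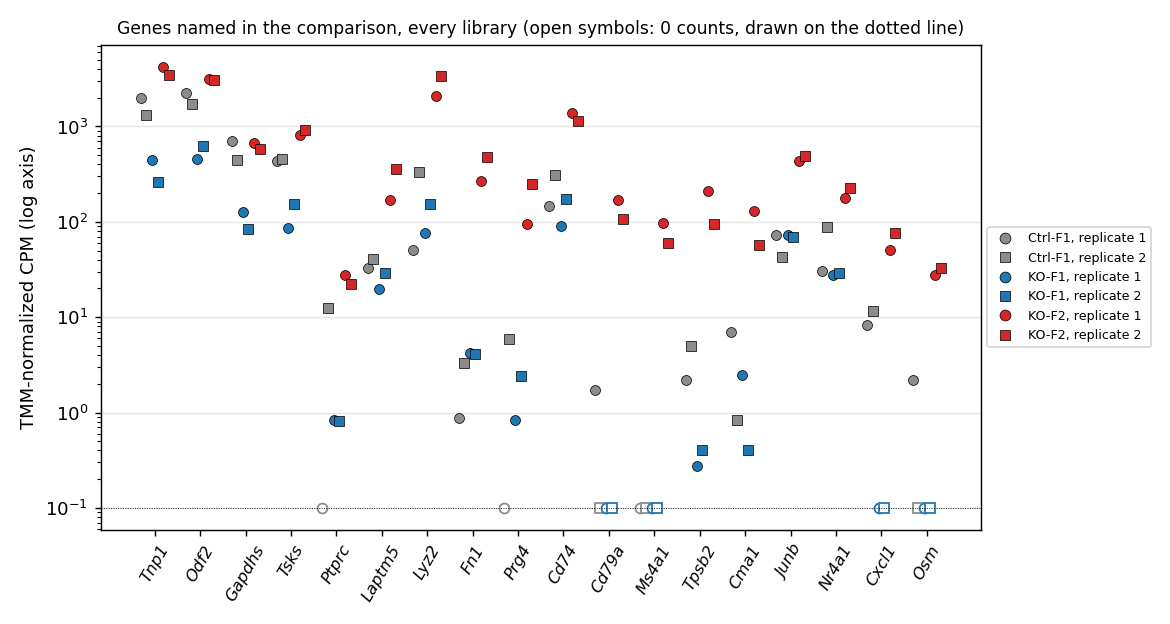
Level of 18 genes in every library, in TMM-normalized CPM on a log axis, with 1 column per gene, circles for replicate 1 and squares for replicate 2. Open symbols on the dotted line are libraries with 0 reads. The sperm genes Tnp1, Odf2, Gapdhs and Tsks are lowest in KO-F1 (blue). The genes from Ptprc to Osm are highest in both KO-F2 libraries (red). They are genes of the leukocyte, immediate early and cytokine lists, with Fn1 and Prg4 beside them.

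Immediate early genes are transcribed within minutes of a stimulus, many of them through cAMP response elements (CRE) and serum response elements, and NF-kB drives early cytokines. The promoters of 4 called genes are printed here, because they hold the CRE or its 5-base core and belong to the immediate early, NF-kB, MHC class II and sperm flagellum lists. They are RefSeq sequences of GRCm38.p6, 250 bases up to 1 annotated start site of each gene, read 5′ to 3′ on the gene's strand. Nr4a1 lies at chr15:101266596-101266845 on the plus strand, Nfkbid at chr7:30422156-30422405 on the plus strand, H2-Aa at chr17:34287824-34288073 on the minus strand and Odf2 at chr2:29889470-29889719 on the plus strand. Capitals mark the palindrome TGACGTCA in Nfkbid and H2-Aa and the core TGACG, on either strand, in Nr4a1 and Odf2.
Nr4a1: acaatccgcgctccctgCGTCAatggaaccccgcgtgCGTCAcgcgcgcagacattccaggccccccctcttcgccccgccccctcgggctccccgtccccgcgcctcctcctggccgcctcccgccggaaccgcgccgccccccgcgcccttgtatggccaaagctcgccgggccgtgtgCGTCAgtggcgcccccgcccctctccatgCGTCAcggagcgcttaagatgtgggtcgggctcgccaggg
Nfkbid: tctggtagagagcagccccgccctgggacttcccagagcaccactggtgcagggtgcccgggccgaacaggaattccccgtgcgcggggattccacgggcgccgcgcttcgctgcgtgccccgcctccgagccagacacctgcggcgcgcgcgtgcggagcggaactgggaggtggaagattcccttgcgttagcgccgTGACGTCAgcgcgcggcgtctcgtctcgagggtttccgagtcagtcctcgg
H2-Aa: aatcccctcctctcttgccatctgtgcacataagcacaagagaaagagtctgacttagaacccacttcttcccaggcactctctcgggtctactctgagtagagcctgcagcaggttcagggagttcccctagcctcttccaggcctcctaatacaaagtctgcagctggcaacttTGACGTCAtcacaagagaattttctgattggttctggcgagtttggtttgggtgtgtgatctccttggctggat
Odf2: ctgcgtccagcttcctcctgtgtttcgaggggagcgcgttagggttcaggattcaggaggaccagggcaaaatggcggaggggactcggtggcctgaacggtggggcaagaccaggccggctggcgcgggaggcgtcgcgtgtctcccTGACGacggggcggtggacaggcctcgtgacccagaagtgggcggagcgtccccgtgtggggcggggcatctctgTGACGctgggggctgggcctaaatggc

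Nr4a1 held 4 cores, the nearest starting 40 bases before the start site and the farthest 233. The palindrome began 51 bases before the start of Nfkbid and 74 before that of H2-Aa, and Odf2 held cores at 27 and 102 bases. Windows of 300 bases, 250 before to 50 after a start, were searched on both strands for all genes, and every palindrome contains the core. TGACGTCA occurred in 3.06% of the 294 windows of genes called higher, 2.86% of the 13661 windows of tested genes, 1.79% of all 32851 windows, 0% of the 24 windows of genes called lower and 9.30% of the 43 windows of immediate early genes. TGACG occurred in 21.4% of windows of genes called higher, 29.5% of tested genes, 20.8% of all windows, 33.3% of genes called lower and 67.4% of immediate early genes. The share in the genes called higher was therefore near or below that of the tested genes, and a match is a description of letters only. The leukocyte lists in this search were the pan-leukocyte, macrophage and monocyte, MHC class II, B cell and mast cell lists. The T and NK cell, dendritic cell and neutrophil lists were left out of it. GAGGAAGT, the letters bound by the myeloid and B cell factor PU.1, occurred in 8.54% of the 82 windows of the leukocyte lists, 3.40% of genes called higher, 4.65% of the 86 windows of the sperm lists, 3.03% of tested genes and 3.20% of all windows. TGACTCA, the letters bound by AP-1, occurred in 5.10% of windows of genes called higher, 0% of genes called lower, 3.89% of tested genes, 5.2% of all windows, 2.33% of immediate early genes, 3.66% of the leukocyte lists and 3.49% of the sperm lists. In the leukocyte lists TGACGTCA and TGACG occurred in 1.22% and 12.2% of windows and in the sperm lists in 1.16% and 24.4%, below their shares in tested genes.

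Immediate early genes were positive in 33 of 40 tested, with 3 called higher, where 2.11% of all tested genes were, and 15 higher and 1 lower at 0.05, where 14.2% and 6.23% of all were. Their median log2 fold change was 1.75, or 1.70 with 10 counts required in every library and -0.28 when libraries were scaled to the sperm lists. Junb, a subunit of AP-1, read 72.2 and 69.7 CPM in KO-F1, 430 and 490 CPM in KO-F2, and 72.5 and 42.5 CPM in Ctrl-F1 (2.71 ± 0.32). The orphan nuclear receptor Nr4a1 rose from 27.5 and 28.9 CPM to 178 and 224 CPM (2.84 ± 0.33), and Ier3, a regulator of cell survival, from 0 and 4 reads to 420 and 484. The summed list read 1271 and 1591 CPM in KO-F1, 1201 and 1422 CPM in Ctrl-F1, and 3290 and 4196 CPM in KO-F2.

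Of the NF-kB and cytokine genes 25 of 27 tested were positive. In this list 3 were called higher and 16 were higher at 0.05, where 2.11% and 14.2% of all tested genes were. The median was 2.62, or 1.41 with 10 counts required in every library. Of the 27, 10 had fewer than 10 reads in both KO-F1 libraries. None of the 6 with at least 10 reads in every library was called, while 2 of them passed at 0.05. Cxcl1, a neutrophil chemoattractant, had no read in KO-F1, 535 and 601 in KO-F2, and 19 and 14 in Ctrl-F1, at least 61.8-fold higher in KO-F2 than in KO-F1. Osm, oncostatin M, a cytokine of activated leukocytes, had no read in KO-F1 and 292 and 261 in KO-F2, at least 29.6-fold higher. Nfkbid, a nuclear NF-kB inhibitor protein, gave 2 and 1 reads against 287 and 225, a ratio of 56.1 (95% counting interval 19.1 to 273). Interferon response genes had no call: edgeR and DESeq2 each called 0 of 16 tested, 0 passed at 0.05 and 1 had an unadjusted p under 0.05, the median was -0.30 (-0.72 without KO-F1 replicate 2, -0.12 without KO-F2 replicate 1 and -0.62 without KO-F2 replicate 2), and Ifitm3, an antiviral membrane protein, read 68.3 and 118 CPM in KO-F1 and 77.9 and 136 CPM in KO-F2, which overlap, with a log2 fold change of 0.20 ± 0.41 whose sign turned with library totals and with the sperm scaling. Ifi27l2a read 23.9 and 33.8 CPM in KO-F1 and 11.7 and 17.9 CPM in KO-F2, and the transcription factor Irf1 11.9 and 18.7 CPM against 21.0 and 26.9 CPM.

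Transcripts of the epididymal duct went the other way. Over 5 lists of its epithelium, 57 of 83 tested genes were negative, 30 were lower and 6 higher at 0.05, where 6.23% and 14.2% of all tested genes were, and 1 was called in each direction, where 2.11% of all were called higher and 0.200% lower. The median was -1.30. The lists together made up 31190 and 24856 CPM in KO-F1, 33977 and 18809 CPM in Ctrl-F1, and 10029 and 6752 CPM in KO-F2, 3.34 times less than in KO-F1. Crisp1, the major secreted protein of principal cells, read 7113 and 9805 CPM in KO-F1 and 3101 and 1342 CPM in KO-F2 (-1.91 ± 0.52, adjusted p = 0.0430), with 19230 and 6835 CPM in Ctrl-F1. The protease inhibitor Spink8 read 4044 and 2184 CPM against 641 and 221 CPM (adjusted p = 0.0229), and Wfdc15b 3864 and 1553 CPM against 835 and 378 CPM. Those 3 genes are the most abundant of the list and do not stand for all of it: of its 24 tested genes 16 were negative and 8 positive, with 14 below and 7 above a 2-fold change, and 9 were lower and 2 higher at 0.05. None of the 24 was called by edgeR, against 1 higher and 9 lower by DESeq2 and 16 at an unadjusted p under 0.05.

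Of 24 junction and keratin genes 20 were negative, with a median of -1.50. edgeR called 0 and DESeq2 12 lower, while 13 were lower at 0.05 and 14 had an unadjusted p under 0.05. The most abundant of them, Cldn3, a claudin of tight junctions, read 1048 and 1344 CPM in KO-F1 and 1062 and 1523 CPM in KO-F2, which overlap (0.12 ± 0.36, a sign that turned with library totals and the sperm scaling). Next in level came Prom2, a protein of apical membranes, at 533 and 840 CPM against 232 and 160 CPM, and Spint2, a membrane protease inhibitor, at 430 and 501 CPM against 197 and 105 CPM. All 5 tested clear cell genes were negative and edgeR called 0, DESeq2 2, with 2 at an unadjusted p under 0.05. Foxi1, the factor that specifies clear cells, read 68.5 and 192 CPM against 12.1 and 26.5 CPM (adjusted p = 0.0235). The proton pump subunits Atp6v1g3 and Atp6v0d2 read 71.3 and 96.9 CPM against 36.1 and 62.7 CPM, and 13.3 and 70.9 CPM against 2.27 and 9.52 CPM. Basal cell genes were barely covered, with 5 of 13 tested, 0 called by either tool and 1 at an unadjusted p under 0.05, and Itga6, integrin alpha 6, read 10.9 and 28.6 CPM in KO-F2 and 3.05 and 4.48 CPM in KO-F1 (adjusted p = 0.0480). The keratin gene Krt15 read 3.88 and 11.4 CPM in KO-F1 and 7.48 and 10.5 CPM in KO-F2, and Sfn (stratifin) 6.94 and 7.74 CPM against 5.30 and 4.57 CPM. Among the beta-defensins, antimicrobial peptides that the epididymis secretes region by region, 12 of 25 tested were positive and 13 negative. Defb1 fell by 2.49 ± 0.36 on the log2 scale, from 93.2 and 65.6 CPM to 14.8 and 13.2 CPM, and Defb33 rose from 12.5 and 6.11 CPM to 115 and 70.7 CPM. The summed defensin level was 7820 and 3037 CPM in KO-F1, 1684 and 1180 CPM in KO-F2, and 1574 and 1053 CPM in Ctrl-F1.

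Azgp1, the zinc-binding glycoprotein ZAG, was picked out after its values were seen, as the called gene without a read in KO-F2. It gave 39 and 55 reads in KO-F1, 111 and 32 in Ctrl-F1 and 0 and 0 in both deeper KO-F2 libraries, at least 50.0-fold lower, and lies at chr5:137981521-137990233.

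The glutathione and antioxidant list held genes of both directions. Of 39 tested genes 27 were negative, 12 lower and 5 higher at 0.05 (6.23% and 14.2% of all tested genes), and Gstt4, named above, was the one called. Gpx3, the secreted glutathione peroxidase, and Gstm5, a glutathione transferase of testis, were picked after their values were seen, as the most abundant of the list. Gpx3 read 52820 and 26450 CPM in KO-F1, 6104 and 1834 CPM in KO-F2 and 8665 and 8952 CPM in Ctrl-F1 (adjusted p = 0.0255). Gstm5 had the other sign, with 1670 and 1892 CPM in KO-F1 and 8414 and 10920 CPM in KO-F2 (adjusted p = 0.0117).

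Genes for the cytosolic ribosome made up 6 of the 27 genes called lower, a direction in which 0.200% of all tested genes were called. Of 72 tested, 53 were negative, 19 were lower and 6 higher at 0.05, where 6.23% and 14.2% of all tested genes were, and the median was -0.87 (-0.44 without KO-F1 replicate 1). Rps18, a protein of the small subunit, gave 297 and 147 reads in KO-F1, 89 and 114 in Ctrl-F1 and 1 and 1 in the deeper KO-F2 libraries, a ratio of 0.00148 (95% counting interval 0.000179 to 0.00538). Rpl10, of the large subunit, gave 298 and 74 reads against 14 and 15, and Rps16 gave 129 and 58 against 16 and 16. Rpsa, which also serves as a laminin receptor, read 200 and 198 CPM in KO-F1 and 22.2 and 17.1 CPM in KO-F2 (-3.32 ± 0.34). 2 members were called higher: Rpl39l, a testis form of Rpl39, from 14.99 and 11.8 CPM to 127 and 100 CPM (3.09 ± 0.36), and Rpl37a, whose coding sequence has 4 other copies, from 8.32 and 2.85 CPM to 92.5 and 75.3 CPM. The summed list stood at 13960 and 8214 CPM in KO-F1 and 9148 and 8958 CPM in KO-F2, and the groups overlap.

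Ribosomal protein genes have many near-identical processed copies, and only uniquely aligned reads were counted, so their values are uncertain. Coding sequences were aligned to GRCm38, and a copy was counted where 1 alignment outside the gene covered at least 80% of it at 95% identity or more. All 6 ribosomal protein genes called lower had such a copy (1 to 11 each), as had 63 of the 72 tested (87.5%). Over all genes called lower, 10 of 27 had a copy (37.0%), against 8 of 267 genes called higher (3.0%) with a coding sequence. Of the genes called lower that are not on the ribosomal protein list, 4 of 21 had one. The part of such copies in the difference was not tested.

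**Figure D4:**
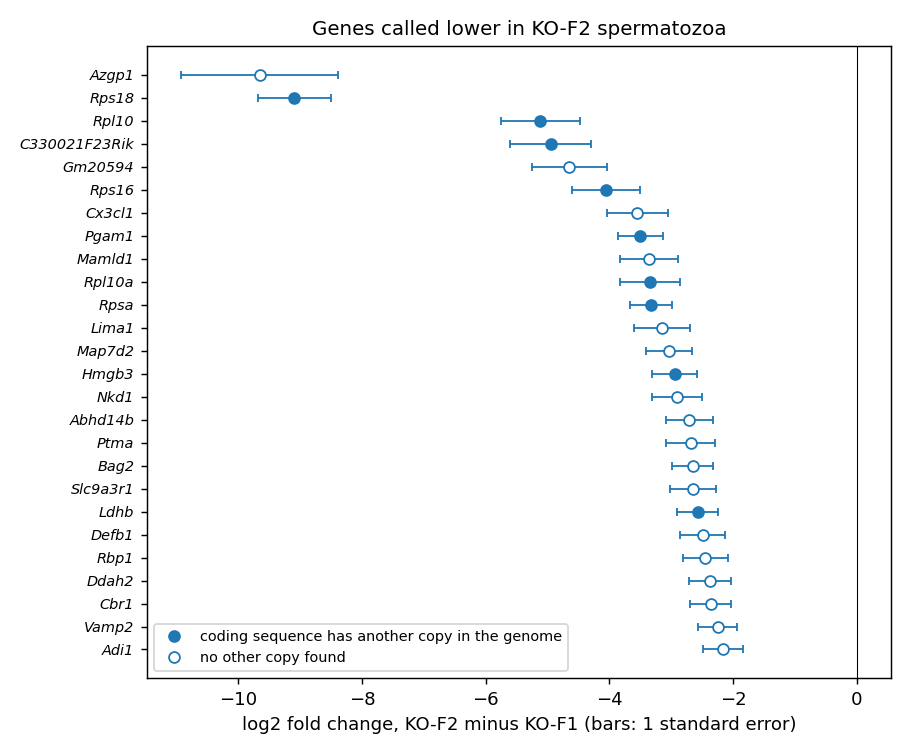
Log2 fold change, KO-F2 minus KO-F1, of 26 genes called lower, with bars of 1 standard error. Filled symbols are the 9 genes whose coding sequence has another copy in the genome, 5 ribosomal protein genes among them. The fitted values of Azgp1 (0 reads in KO-F2) and Rps18 (1 read per library) depend on the prior count.

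The other genes called lower belonged to no single class. Pgam1, the somatic phosphoglycerate mutase, fell by 3.50 ± 0.37 on the log2 scale, from 79.9 and 68.8 CPM to 6.54 and 6.48 CPM, and Ldhb, a lactate dehydrogenase subunit, from 470 and 384 CPM to 77.9 and 64.4 CPM. The sperm-enriched Pgam2 and Gapdhs rose, as given above. Map7d2, a microtubule-associated protein, fell from 111 and 79.0 CPM to 10.5 and 12.6 CPM, Hmgb3, an HMG-box protein of dividing cells, from 78.3 and 60.7 CPM to 8.90 and 9.02 CPM, and Bag2, a co-chaperone, from 100 and 92.9 CPM to 16.0 and 14.5 CPM. Mamld1 gave 322 and 108 reads against 69 and 50. Gm20594, a gene model with no assigned role, gave 110 and 188 reads in KO-F1 and 24 and 15 in KO-F2. C330021F23Rik, which RefSeq names Rps23rg1, a retrogene of a ribosomal protein gene, gave 131 and 45 reads against 10 and 6, and its coding sequence has 9 other copies. Pgam1 has 2 other copies and Ldhb and Hmgb3 have 1 each, so the values of these 4 genes are uncertain too.

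Classes of general metabolism had medians closer to that of all genes. Mitochondrial ribosomal protein genes had a median of -0.44, with edgeR calling 0 of 75 and DESeq2 8 lower, 9 lower and 4 higher at 0.05 and 25 at an unadjusted p under 0.05, and Mrps6 read 227 and 135 CPM against 47.5 and 45.8 CPM. Mrpl17 had the same sign, at 206 and 109 CPM against 65.5 and 41.5 CPM, and Mrpl54 the other, at 81.6 and 49.3 CPM against 173 and 149 CPM. Oxidative phosphorylation genes had a median of -0.22, with 1 of 78 called: Ndufa13, a complex I subunit, rose from 158 and 242 CPM to 2095 and 2959 CPM (3.66 ± 0.42). Its gene, chr8:69894163-69902558, overlaps the start of the kinase gene Tssk6, so reads of the pair may not be separable. Proteasome genes had a median of -0.24, with Psma6 called (104 and 94.5 CPM against 526 and 472 CPM). Of the chaperones, edgeR called 0 of 21 heat shock genes and DESeq2 4 higher and 2 lower, with 11 at an unadjusted p under 0.05, and Hspb9, a testis small heat shock protein, read 1053 and 1011 CPM against 5145 and 5922 CPM (adjusted p = 0.0105). The general chaperone genes Hsp90ab1 and Dnajb1 read 473 and 334 CPM against 217 and 238 CPM, and 144 and 205 CPM against 245 and 249 CPM. Herpud1, of the degradation pathway of the endoplasmic reticulum, was the one called of 21 stress genes there, at 50.8 and 86.8 CPM against 419 and 423 CPM, while the list's median was -0.62. Several of these medians depended on 1 KO-F1 library. Without KO-F1 replicate 1 they were -0.097 for mitochondrial ribosomal proteins, 0.048 for oxidative phosphorylation and -0.13 for the proteasome, and without KO-F1 replicate 2 -0.72, -0.46 and -0.38, with -0.35 for the stress genes. Without KO-F2 replicate 2 the mitochondrial ribosomal and oxidative phosphorylation lists were at -0.29 and -0.063.

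Lysosomal genes had a median of 0.20, with edgeR calling 0 of 20, DESeq2 2 higher and 6 at an unadjusted p under 0.05, and Lamp1, a lysosomal membrane protein, read 371 and 629 CPM against 290 and 261 CPM (adjusted p = 0.141). The cathepsin genes Ctsd and Ctsb read 176 and 411 CPM against 201 and 346 CPM, and 116 and 191 CPM against 159 and 434 CPM, and overlap between the groups. Core histone genes had a median of -0.65, with edgeR calling 0 of 14 tested, DESeq2 1 lower and 5 at an unadjusted p under 0.05, and the linker histone gene Hist1h1c at 133 and 101 CPM against 35.1 and 38.5 CPM. Hist1h2bc read 133 and 64.3 CPM against 38.0 and 34.5 CPM, and Hist3h2a 88.0 and 47.6 CPM against 30.4 and 22.1 CPM. With 1 library left out the lysosomal median ranged from -0.31 (KO-F1 replicate 1) to 0.89 (KO-F1 replicate 2) and that of the histones from -1.51 (KO-F2 replicate 1) to -0.19 (KO-F1 replicate 1). Among 17 tested Polycomb group genes, the family to which the deleted paternal gene belongs, the median was -0.25 (0.65 without KO-F1 replicate 1) and Phc1, a subunit of Polycomb repressive complex 1, was called (39.4 and 48.5 CPM against 217 and 199 CPM, 2.26 ± 0.33). Of 8 tested olfactory receptor genes 0 were called by either tool and 4 had an unadjusted p under 0.05, and Olfr733 read 8.60 and 2.04 CPM against 19.99 and 22.7 CPM, Olfr128 3.88 and 3.26 CPM against 11.1 and 13.8 CPM, and Olfr1033 6.66 and 8.96 CPM against 3.98 and 6.73 CPM.

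The remaining cell types were sparse. In the smooth muscle list 8 of 10 tested genes were negative (median -0.90), but Actg2, smooth muscle gamma actin, which germ cells are also known to express, was called higher at 292 and 238 CPM against 14.7 and 30.1 CPM. Of 5 tested endothelial genes edgeR called 0 and DESeq2 1 in each direction, with 2 at an unadjusted p under 0.05. Vwf, von Willebrand factor, read 2.50 and 5.29 CPM in KO-F1 and 8.81 and 11.8 CPM in KO-F2, and Ramp2, a receptor partner, 14.7 and 9.78 CPM against 0.853 and 2.16 CPM, while Esam, an adhesion molecule, read 6.10 and 1.63 CPM against 5.87 and 6.22 CPM. Of 3 tested genes of the accessory glands all were negative, edgeR called 0 and DESeq2 1, and 1 had an unadjusted p under 0.05. Svs1, a seminal vesicle secretory protein, read 24.1 and 144 CPM against 22.3 and 11.6 CPM, and Pate4 and Tgm4 9.16 and 4.48 CPM against 0.663 and 2.92 CPM, and 1.67 and 3.26 CPM against 1.23 and 0.508 CPM. Among the Sertoli and Leydig cell genes 4 of 15 could be tested, edgeR called 0 and DESeq2 1, and 2 had an unadjusted p under 0.05. Cyp11a1, an enzyme of steroid synthesis, had 0 reads in the 4 F1 libraries and 107 and 50 in KO-F2, while Star, of cholesterol transport, gave 4 and 5 against 42 and 47 and Rhox8 read 3.61 and 1.63 CPM against 1.71 and 5.71 CPM. Among 3 tested adipocyte genes edgeR called 0 and DESeq2 1, with 2 at an unadjusted p under 0.05, and the fatty acid carrier Fabp4 gave 0 and 0 reads against 77 and 150 (adjusted p = 0.0163), Lpl, lipoprotein lipase, 4 and 13 against 130 and 133, and Adipoq, adiponectin, 8 and 3 against 78 and 36.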

How the data were processed

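Cauda epididymal swim-up spermatozoa were profiled by RNA-seq (single-end, 75 bp, SMART-Seq v4 and Nextera XT libraries). The study's methods give total RNA as the input, whereas the labels name polyA RNA. The deposited values are raw read counts per gene: the authors aligned reads to GRCm38/mm10 with HISAT2 2.1.0 and counted uniquely aligned reads with featureCounts, with annotation and strand setting not given in the sources used here. Each file held 23420 lines, and 4 lines of 2 symbols listed more than once were dropped. Totals were 2085285 to 11462105 counts per library in KO-F1 and KO-F2, and 2426900 and 1503733 in Ctrl-F1. The detection limit was taken as 3 counts, which is 1.30 and 2.50 CPM in the Ctrl-F1 libraries.

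Genes were filtered with filterByExpr (minimum count 10, minimum total 15), scaled by TMM and tested with glmQLFTest in edgeR 4.0.16 (R 4.3.3) on the 4 libraries, with Benjamini-Hochberg adjustment over all 13517 genes. CPM are TMM-normalized, and the Ctrl-F1 libraries entered only the scaling and a 3-group alternative. Counting intervals are exact, at 95%. A fold against 0 reads used 3 counts per library, averaged over the group.

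The text names the 12 genes with the smallest adjusted p in each direction, up to 6 called members per list with the highest mean CPM, or up to 3 members where none was called, and says which others were chosen after their values were seen. The comparison and all gene lists were chosen with earlier results of these data known. Replicate numbers are shared between the groups but name different animals. Deviations from the group means correlated at 0.0607 between same-numbered libraries, so the main model had no block.

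Copies of coding sequences were sought with BLAST+ 2.17.0 in GRCm38, and gene coordinates and promoters came from RefSeq GRCm38.p6. Promoter windows were found for 218 of the 285 genes called higher and 22 of the 27 called lower. Alternatives were DESeq2 1.42.0, other scalings, filters, thinned counts, Rn45s left out, a replicate block, all 3 sperm groups in 1 model, a threshold of 0.05 and each library left out. Other samples of the series were not analysed here. 2 genes of the lists are counted in the totals and not reported here by name.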

Additional observations from a re-analysis of the deposited data

How the results depend on the processing

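The main analysis called 285 genes higher and 27 lower. DESeq2 called 1401 and 658, edgeR with DESeq2 size factors 325 and 58, library totals 0 and 0, scaling to 5 sperm lists 39 and 3937, and leaving out Rn45s 449 and 81. Without a filter the calls were 1841 and 711, with at least 10 counts in every library 1304 and 501, with thinned counts 571 and 127, with all 3 sperm groups 168 and 30, and at an adjusted p under 0.05 they were 1917 and 842. With the replicate number as a block they were 665 and 154, but same-numbered libraries came from different animals and shared only a number (correlation of deviations 0.0607). Leaving out 1 library gave 216 to 1871 higher and 10 to 1027 lower calls: 1041 and 510 without KO-F1 replicate 1, 1871 and 1027 without KO-F1 replicate 2, 216 and 14 without KO-F2 replicate 1, and 338 and 10 without KO-F2 replicate 2. A group left with 1 library was assumed to vary like the other group. The cause of these shifts was not tested.

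All 312 called genes kept their sign wherever they were tested, and 183 of them were called with all 3 groups, 66 under the sperm scaling, 171 without KO-F2 replicate 1 and 245 without KO-F2 replicate 2. Among genes not called, scaling to the sperm lists reversed Catsper2 (-1.31), Catsperg1 (-1.57), Ifitm3 (-1.84), Irf1 (-1.38), Aurka (-0.020), Cenpf (-0.28), Vwf (-0.62), Esam (-1.34), Cldn3 (-1.91), Krt15 (-1.80), Star (-0.34), Rhox8 (-1.49), Adipoq (-0.21), Mrpl54 (-0.70), Dnajb1 (-1.53), Ctsb (-1.08) and Olfr128 (-0.20). Library totals also reversed Ifitm3 (-0.19), Cldn3 (-0.29) and Krt15 (-0.13), a model of all 3 groups Cldn3 (-0.050), and the filter of 10 counts in every library Ctsd (0.10). With 1 library left out, Ifitm3 ranged from -0.18 to 0.61, Cldn3 from -0.098 to 0.36, Krt15 from -0.38 to 1.17, Esam from -0.049 to 1.85, Rhox8 from -0.54 to 1.13 and Ctsd from -0.62 to 0.60. The medians of the B cell, mast cell, neutrophil and olfactory receptor lists became 0.60, -0.59, -1.61 and -0.34 when 10 counts were required in every library, which removes genes at few reads in KO-F1.

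The KO-F1 libraries were shallower than the KO-F2 libraries, so genes under 0.833 to 1.22 CPM in KO-F1 could not be told from 0. Run, depth, background and conception differ with generation, and 2 libraries per group limit every p-value.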
